A study of Homo sapiens with 15 samples.

Results

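In the leukaemia line K562, established from a patient with chronic myelogenous leukaemia and carrying erythroid traits, 3521 high-confidence BG4 regions lay upstream of a protein-coding start site and away from divergent gene pairs. BG4 is an antibody raised against DNA G-quadruplexes (G4s), and a region stands where BG4 peaks of several chromatin immunoprecipitation libraries overlapped. A region was taken when its middle fell 50 to 1000 bp upstream of the nearest protein-coding start site, read on the strand of that gene. Start sites came from GENCODE basic transcripts on GRCh37 (hg19). Regions within 1 kb of both starts of a divergent pair, that is 2 genes transcribed away from each other from starts at most 1000 bp apart, were left out. The 3521 regions were 39.4% of the 8937 high-confidence regions on chromosomes 1 to 22 and X, of 8955 in the whole list. They were 53.0% of the 6642 regions whose middle was 1 kb or less from such a site. A further 1827 regions had their middle within 49 bp of the start, 470 lay 50 to 1000 bp downstream of it, 824 were at divergent pairs, and 2295 lay farther away.

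The 5 BG4 libraries were made from K562 cells that were not synchronised and had no treatment. Biological replicate 1 gave 2 technical libraries, 1a and 1c, and biological replicate 2 gave the other 3, 2a, 2b and 2c. Each library had its own peak list of 8041 to 12468 peaks on these chromosomes, with a fold enrichment per peak that is the authors' own value. Inside the peak lists of 2a and 2c the peaks are named with the letter of the other library. Values are printed under the sample labels, and those of 2a and 2c may therefore be exchanged. The 2 input libraries, and the bisulfite libraries of HaCaT keratinocytes (4 control, 4 given entinostat at 10 uM over 48 h), are not used here. The number of reads per library is unknown. No file used here holds expression data, so the cell line's identity was taken from the sample labels and was not checked.

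A G4 is a stack of guanine tetrads that forms within 1 DNA strand when several runs of guanines lie close together. Promoters are rich in such sequence, and their nucleosome-poor stretch just upstream of the start site is also where sequence-specific factors bind. GC boxes there are recognised by the SP and KLF zinc finger proteins, and CCAAT boxes by the trimeric factor NF-Y. Which strand carries the guanines matters to transcription, because RNA polymerase reads the template strand while the coding strand is displaced.

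The sequences below show the 3 kinds of DNA that the upstream regions held. A G4 motif here is 4 runs of 3 or more G separated by loops of 1 to 7 bases, wholly inside the region, on either strand. The first set is from the 10 strongest upstream regions and gives single motifs, written on their G-rich strand with the G runs in capitals. The CLIC4 motif lies at chr1:25071817-25071838 on the minus strand, which is the template strand of this gene. The INPP5A motif lies at chr10:134351249-134351268 on the minus strand and the DNAJC21 motif at chr5:34929613-34929635 on the minus strand, both also template strands.
CLIC4: GGGaGGGGcgccGGGGGcGGGG
INPP5A: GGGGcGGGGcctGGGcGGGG
DNAJC21: GGGccgcgcGGGaGGGGGtGGGG

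The second set shows 200-bp windows of regions in which the motif is repeated, on the coding strand, with whole G4 motifs in capitals. NMT2 and GSDMA had the most motif bases on the coding strand of all upstream regions, 221 each. The NMT2 window at chr10:15210739-15210938 (minus strand) holds 6 of the 10 motifs of its region. SMIM1 was among the 3 regions with the most motif bases on the template strand, so its window at chr1:3689082-3689281 (plus strand) shows runs of C, and it holds 3 of its 6 motifs. KLF16, at chr19:1863855-1864054 (minus strand), is 1 of the 10 strongest regions and shows 1 of its 2 motifs.
NMT2: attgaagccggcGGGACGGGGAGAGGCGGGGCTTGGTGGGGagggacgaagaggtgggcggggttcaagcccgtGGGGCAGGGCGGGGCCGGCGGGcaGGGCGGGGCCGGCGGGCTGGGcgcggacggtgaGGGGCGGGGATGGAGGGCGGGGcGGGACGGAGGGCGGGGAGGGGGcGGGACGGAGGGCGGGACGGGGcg
SMIM1: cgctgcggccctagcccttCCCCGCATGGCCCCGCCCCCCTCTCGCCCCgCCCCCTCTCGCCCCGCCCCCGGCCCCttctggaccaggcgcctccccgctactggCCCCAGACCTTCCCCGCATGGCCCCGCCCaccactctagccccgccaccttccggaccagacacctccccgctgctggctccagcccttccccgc
KLF16: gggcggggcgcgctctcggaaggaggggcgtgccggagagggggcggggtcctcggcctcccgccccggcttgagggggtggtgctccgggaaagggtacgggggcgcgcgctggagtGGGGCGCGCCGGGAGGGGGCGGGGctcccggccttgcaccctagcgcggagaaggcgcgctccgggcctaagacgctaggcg

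The last sequence comes from a strong region with no G4 motif by this definition, again on the coding strand. Here capitals mark CCAAT boxes (CCAAT or its complement ATTGG) and GC boxes (GGGCGG or its complement CCGCCC). The TPRN window at chr9:140095291-140095490 (minus strand) holds 3 CCAAT boxes in the same direction and 1 GC box. All positions are on GRCh37, and all windows lie outside annotated exons.
TPRN: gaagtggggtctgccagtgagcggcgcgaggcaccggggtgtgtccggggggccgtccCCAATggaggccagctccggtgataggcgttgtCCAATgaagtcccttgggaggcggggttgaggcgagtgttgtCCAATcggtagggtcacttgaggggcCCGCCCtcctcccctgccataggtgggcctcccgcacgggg

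The upstream regions sat close to the start site. Their middles lay a median of 108 bp upstream (95% interval 105 to 110), with quartiles at 76 and 159 bp, and 83% were within 200 bp. Density fell from 31.3 regions per bp at 50 to 100 bp to 7.88 at 151 to 200 bp and 0.322 at 501 to 1000 bp, where only 161 regions (4.57%) lay. The inner bound of 50 bp cuts through the densest stretch: 828 regions outside divergent pairs had their middle in the 25 bp just beyond it and 776 in the 25 bp just short of it. The regions were a median of 231 bp wide, from 1 to 1024 bp. Many therefore reached the start site itself: 2033 (57.7%) covered it, and these reached a median of 38 bp into the gene. The others stopped a median of 47 bp short of it.

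**Figure D1:**
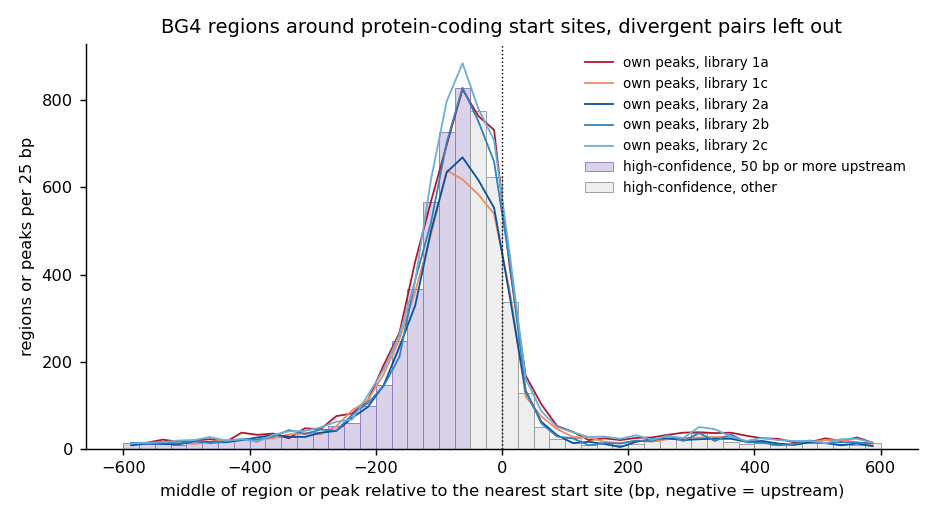
Number of region or peak middles per 25 bp (y axis) by position relative to the nearest protein-coding start site (x axis, bp), with divergent pairs left out. Bars are high-confidence regions, shaded where they are 50 bp or more upstream, and lines are the own peaks of each library. The bars are highest just upstream of the start, at 828 and 776 regions per 25 bp on the 2 sides of the 50 bp bound, and the 5 lines follow the same shape.

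Each library alone gave the same position. In the own peak lists, 3103 to 3906 peaks per library met the upstream rule, which was 50% to 52.1% of the library's peaks near start sites (mean 51.2% ± 0.250, SD, n = 2 biological replicates). Upstream peaks outnumbered downstream peaks 4.40-fold (1a), 5.10-fold (1c), 6.49-fold (2a), 6.61-fold (2b) and 4.90-fold (2c). The ratio was above 4 in each library, and the 2 replicates overlapped, since 2c lay among the values of replicate 1. In the high-confidence list the ratio was 7.49, higher than in any single library.

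The regions nearest the bounds of the rule are given as examples. Just inside 50 bp, the ARID1A region (50 bp) had fold enrichments of 6.29 (1a), 7.05 (1c), 4.94 (2a), 4.71 (2b) and 4.09 (2c). Just outside it, at 49 bp, the PEX14 region had 7.09, 5.49, 6.55, 5.51 and 5.54 in the same order. TRIT1 (5.53 to 7.54 over the libraries) also lay just inside. In all, 40 regions lay at exactly 50 bp and 26 at 49 bp. At the outer bound, PPP2R5C (5.39 to 7.75) and NLK (6.87 to 8.88) lay at 1000 bp exactly, while SOX12 (5.03 to 10.1) and LENG9 (a peak in 3 libraries, 3.05 to 7.19) lay at 1007 bp and were not taken.

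The 3521 regions belonged to 3328 of the 19747 protein-coding genes, 16.9%. By comparison 459 genes (2.32%) had a downstream region, and 5947 (30.1%) had a region of any class near a start. Among the 3328 genes, 177 had 2 or more upstream regions, at most 4, and 295 also had a region at or downstream of a start. Alternative start sites blur the class to some extent. For 323 regions (9.17%) another start of the same gene lay farther upstream, at most 1 kb from the middle of the region. The region was then also downstream of that start, and starts more than 1 kb away were not counted. Genes with a single start site held 905 regions. At their middle, 2369 regions (67.3%) lay outside annotated genes, 615 (17.5%) in an intron of a protein-coding gene and 174 (4.94%) in a protein-coding exon. Noncoding genes held 192 (5.45%) in exons and 171 (4.86%) in introns.

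Library support was broader upstream than downstream. A peak in all 5 libraries stood behind 2253 upstream regions (64.0%), beside 55% over all regions. It stood behind 61.7% of regions at divergent pairs (58.3% to 64.9%), 50.4% of those at the start and 50% of those downstream. The difference from the downstream class was 14.0 percentage points (95% Newcombe interval 9.21 to 18.8). The 2 classes were not matched for distance, since middles lay a median of 108 bp from the start upstream and 322.5 bp downstream. Upstream regions had all 5 libraries in 58.6% to 76.6% over the distance bins from 50 to 300 bp. The share was 51.6% at 301 to 500 bp and 46.6% at 501 to 1000 bp. The part of distance in the class difference was not tested. Intervals here and below cover counting error over regions, which are not replicates of a condition and are not independent where they neighbour each other. Library 2c had a peak in 96.5% of the upstream regions and 1a in 93.5%, while 2b had 89.5%, 2a 84.1% and 1c 84.0%. Both biological replicates were present at 3429 regions (97.4%), and 92 rested on replicate 2 alone. Much of this share was fixed in advance, since each region used was covered by 3 or more libraries and replicate 1 has only 2. Only the 576 regions with a peak in exactly 3 libraries could lack a replicate, and then only replicate 1.

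Region width moved with this difference. Upstream regions had a median width of 231 bp against 196 bp downstream, and wide regions tended to have more libraries. Among regions of 183 to 279 bp the difference was 11.1 points (3.54 to 19.3). Among narrower regions it was 3.9 points (−1.62 to 8.25), and among those of 280 bp or more it was −1.59 points (−2.85 to 2.44), where nearly every region of both classes had all 5 libraries.

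Peaks of upstream regions were also higher. To put libraries on 1 scale, each peak's fold enrichment was given as its percentile among the library's own peaks. The median upstream percentile was 72.0 (1a), 69.2 (1c), 61.7 (2a), 62.5 (2b) and 67.0 (2c). Downstream regions had medians of 64.4, 61.3, 46.5, 51.9 and 58.2 in the same order. Upstream was higher in 5 of 5 libraries, and the difference averaged 9.63 ± 2.66 percentile points (SD, n = 2 biological replicates). An exact two-sided sign-flip permutation test over the 2 replicates gave p = 0.5, the smallest p this design allows. On the fold scale the upstream medians were 8.56 (1a), 7.62 (1c), 7.37 (2a), 6.84 (2b) and 6.95 (2c). The classes differed in median distance (108 bp upstream, 322.5 bp downstream) and width (231 and 196 bp). In each distance bin up to 300 bp, the upstream percentile was above the downstream median in each library. At 301 to 500 bp it was below in 2b (48.1 against 51.9). At 501 to 1000 bp it was 57.9 (1a), 61.7 (1c), 50.2 (2a), 49.4 (2b) and 60.8 (2c), below in 1a and 2b. The part of distance and width was not tested.

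**Figure D2:**
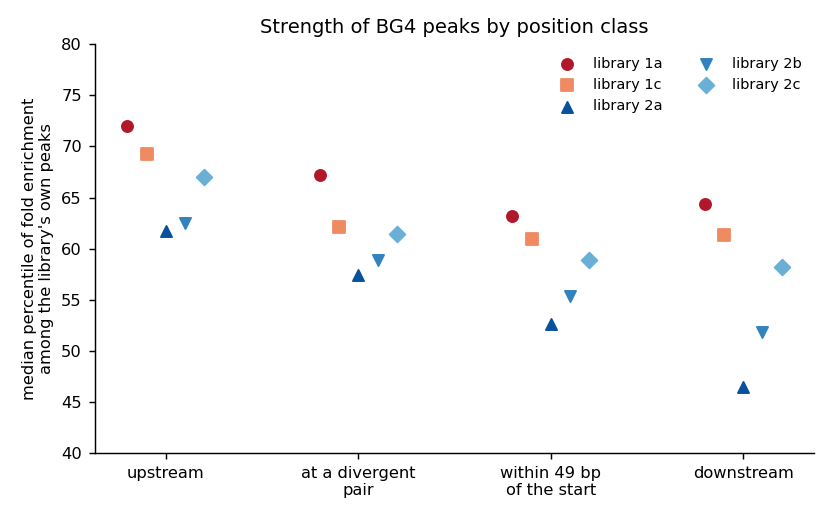
Median percentile of fold enrichment (y axis, rank among the library's own peaks) for high-confidence regions of 4 position classes (x axis), 1 point per library. Each library has its highest point in the upstream class, and the distance to the downstream class is widest in 2a (15.2 points) and smallest in 1a (7.63 points).

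Within the upstream class, strength peaked well away from the start. At 50 to 100 bp the median percentile ranged from 57.0 (2a) to 68.7 (1a) over the libraries, and beyond 200 and up to 300 bp from 72.3 (2a) to 81.9 (1a). It then dropped to between 48.1 (2b) and 69.1 (1c) at 301 to 500 bp. Each of the 5 libraries showed this rise and drop. Width followed the same course, with medians of 206 bp at 50 to 100 bp, 384 bp beyond 200 and up to 300 bp and 198.5 bp at 301 to 500 bp, and its part in the course of strength was not tested. The share with a peak in all 5 libraries was 58.6% in the nearest bin, 76.6% at 151 to 200 bp and 46.6% beyond 500 bp.

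**Figure D3:**
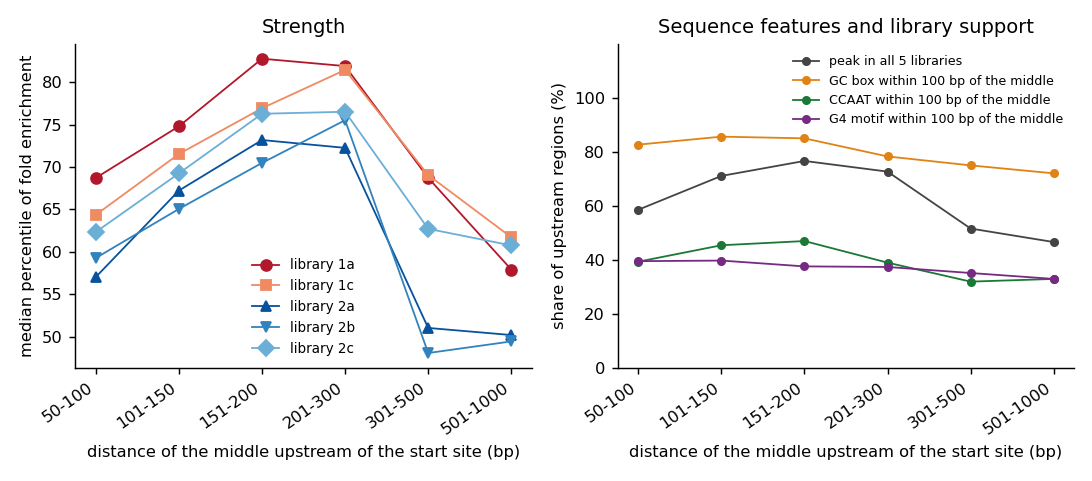
Upstream regions by distance of their middle from the start site (x axes, bp). Left, the median percentile of fold enrichment in each library; right, the share of regions (%) with a peak in all 5 libraries and with each of 3 sequence motifs within 100 bp of the middle. Strength and library support are highest between 151 and 300 bp, while the share with a G4 motif stays between 32.9% and 39.7%.

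The 10 strongest upstream regions were those with a peak in all 5 libraries whose lowest percentile over the libraries was highest. At CLIC4, which encodes a chloride intracellular channel protein, the region (chr1:25071411-25071930, 268 bp upstream) had fold enrichments of 20.9 (1a), 19.6 (1c), 16.2 (2a), 15.7 (2b) and 15.5 (2c). Both libraries of replicate 1 were above the 3 of replicate 2, as were their medians over all upstream regions, so fold values are not on 1 scale between libraries. In rank the region was at a percentile of 99.8 or more in each library. At KLF16, a zinc finger factor of the family that binds GC boxes, the values were 19.2 (1a), 14.6 (1c), 16.7 (2a), 14.4 (2b) and 15.5 (2c), and here the replicates overlapped. DNAJC21, a cochaperone of ribosome assembly, held the highest single value of all upstream regions, 25.8 in 1a, beside 13.6 (1c), 15.2 (2a), 13.7 (2b) and 17.8 (2c). Its percentile was 100 in 1a and 98.2 in the technical partner 1c.

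At TPRN, the hearing gene taperin, fold enrichment was 20.6 (1a), 18.2 (1c), 13.8 (2a), 12.7 (2b) and 13.6 (2c). PLCD1, a phospholipase C, had 18.2, 14.3, 15.3, 12.7 and 13.7 in the same order. Both regions ranked among the 10 although they held no G4 motif, and the window printed above shows the CCAAT and GC boxes of TPRN. ZNF7, INPP5A, TMEM52 and LEPROT were also among the 10, with lowest values of 14.2, 13.4, 12.3 and 12.8, and the LEPROT region is shared with an exon of LEPR. The 9 regions plotted held a GC box, lay in a strict CpG island and were at least 436 bp wide. Both features were common at large, since 95.1% of upstream regions of 280 bp or more held a GC box and 96.0% of all upstream regions overlapped a strict island.

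**Figure D4:**
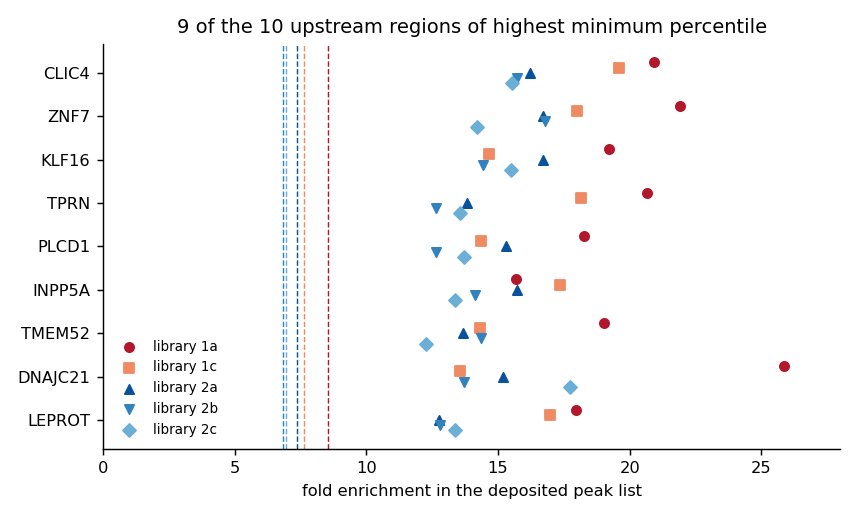
Fold enrichment in the authors' peak lists (x axis) at 9 of the 10 strongest upstream regions (y axis, nearest gene), 1 symbol per library, with dashed lines at each library's median over all upstream regions (6.84 to 8.56). Each symbol lies to the right of its library's line, and the widest spread is at DNAJC21, from 13.6 to 25.8.

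G4 motifs were present in fewer than 1 in 2 upstream regions. A motif was found in 1464 regions (41.6%, Wilson interval 40% to 43.2%), 2383 motifs in all, with at most 10 in a region. Downstream regions held one in 41.3%, a difference of 0.303 points (−4.48 to 4.96), and regions at the start in 32.3%, a difference of 9.29 points (6.57 to 12). In the libraries' own peaks the upstream share exceeded the downstream share in 5 of 5 libraries, by 5.12 ± 1.60 points (SD, n = 2). The comparison with downstream regions turned with their choice. Among regions with a peak in all 5 libraries the upstream share was lower by 9 points (difference −9.0, −15.5 to −2.29), and among regions of 280 bp or more it was 59.1% against 73.5% (difference −14.3, −22.1 to −5.11). Within 100 bp of the middle of every region the difference was −0.495 points (−5.25 to 4.11). Of the 3521 regions, 14 were narrower than the 15 bases of the shortest possible motif.

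Regions with a motif were stronger, but they were also wider. A peak in all 5 libraries stood behind 75.2% of upstream regions with a motif and 56.0% of those without, a difference of 19.2 points (16.1 to 22.2), while the median widths were 276.5 and 202 bp. When upstream regions were divided by width into 3 groups of equal size, the same difference was 0.648 points (−4.15 to 6.10), −2.66 points (−7.57 to 2.14) and −0.671 points (−2.39 to 1.26) from narrow to wide. Nearly all regions of the widest group had all 5 libraries, 97.4% with a motif and 98.1% without. The percentile of fold enrichment was higher with a motif by 13.3 ± 3.04 points over all upstream regions (SD, n = 2, 5 of 5 libraries). Within the width groups it was higher by 1.93 ± 0.634 (3 of 5 libraries), 3.83 ± 1.33 (5 of 5) and 3.84 ± 4.60 points (5 of 5), from narrow to wide. Fold enrichment rose with motif number. In 1a the median was 8.10 with no motif, 8.86 with 1, 9.71 with 2, 9.91 with 3 and 10.3 with 4 or more. Library 2c went from 6.53 with none to 9.03 with 4 or more, and in 1c alone the step from 3 motifs to 4 or more was downward, from 8.97 to 8.88. Width rose alongside, from 202 bp with no motif to 411 bp with 4 or more. Where a motif was present, the nearest one was centred a median of 45.1 bp from the mean summit of the peaks, in regions whose edges lay a median of 138 bp from their middle.

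The G runs lay on either strand upstream. Among the 1284 regions with a motif on 1 strand alone, 680 (53.0%, 50.2% to 55.7%) had it on the coding strand and 604 on the template strand, and another 180 regions had motifs on both. Downstream the coding strand held 60.7%, so that the upstream share was lower by 7.71 points (difference −7.71, −15.1 to 0.102), an interval that takes in 0. In own peaks the difference was −12.7 ± 1.43 points (SD, n = 2) and had this direction in 5 of 5 libraries. Strand made no difference that could be seen in library support: 73.7% of regions with the motif on the coding strand and 73.7% of those with it on the template strand had all 5 libraries (difference 0.000974 points, −4.80 to 4.84).

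The regions richest in motif bases differed in strength. At NMT2, an N-myristoyltransferase with 10 motifs on the coding strand, fold enrichment was 13.0 (1a), 10.8 (1c), 13.7 (2a), 10.7 (2b) and 10.9 (2c), above each library's upstream median. At SMIM1, the gene of the Vel blood group protein, 6 motifs lay on the template strand and the values were 10.1, 7.15, 5.44, 2.94 and 3.65. There the 2 libraries of replicate 1 were above the 3 of replicate 2, whose values lay under their library medians. Gasdermin A (GSDMA) with 9 motifs and ARRDC1 with 8, both on the coding strand, ranged from 7.48 to 11.8 and from 7.56 to 13.3. MAZ, a zinc finger factor of G-rich promoters, had 7 motifs on the template strand, the widest upstream region at 1024 bp, and values from 6.86 to 11.2. ATP8B3 had 6 template motifs and values from 8.74 to 16.5.

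CCAAT boxes were more frequent in the upstream regions than in either class nearer to or inside the gene. The letters CCAAT on either strand were present in 1498 upstream regions (42.5%) and 103 downstream regions (21.9%), a difference of 20.6 points (16.4 to 24.5). In own peaks it was 23.5 ± 0.481 points (SD, n = 2), in the same direction in 5 of 5 libraries. Regions at the start held a CCAAT box in 26.7%, 15.8 points fewer (13.2 to 18.4). At each width the difference from the downstream class was of similar size. It was 16.1 points among regions up to 182 bp, 20.8 points at 183 to 279 bp and 17.0 points from 280 bp, with intervals that left out 0 in each.

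Promoters in general hold CCAAT boxes at these distances, so windows reaching 100 bp to each side were centred 108 bp upstream of the canonical start of each of the 19747 protein-coding genes. Of these windows 30.8% held CCAAT, and of the 7408 in a strict CpG island at genes with no region of any class within 1 kb, 25.5% did. The upstream regions held it in 41.1% of windows of the same length, 15.6 points more than the latter (13.7 to 17.5). Grouped by GC content, the share was higher in the regions in each of 6 classes. At 50% to 60% GC it was 71.4% against 39.2%, at 65% to 70% it was 48.8% against 23.1%, and at 80% to 90% it was 24.9% against 11.1%. Along the promoter the excess was tallest at 60 to 80 bp upstream, where there were 12 CCAAT boxes per 100 start sites in a 20-bp bin at the 3413 start sites with an upstream region, and 6.67 at the 7408 island starts without any region. Farther than 400 bp upstream the 2 sets differed by less than 1 box per 100 start sites in each bin, and likewise downstream of the start. A match is a description of the sequence, and binding of NF-Y was not measured here.

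**Figure D5:**
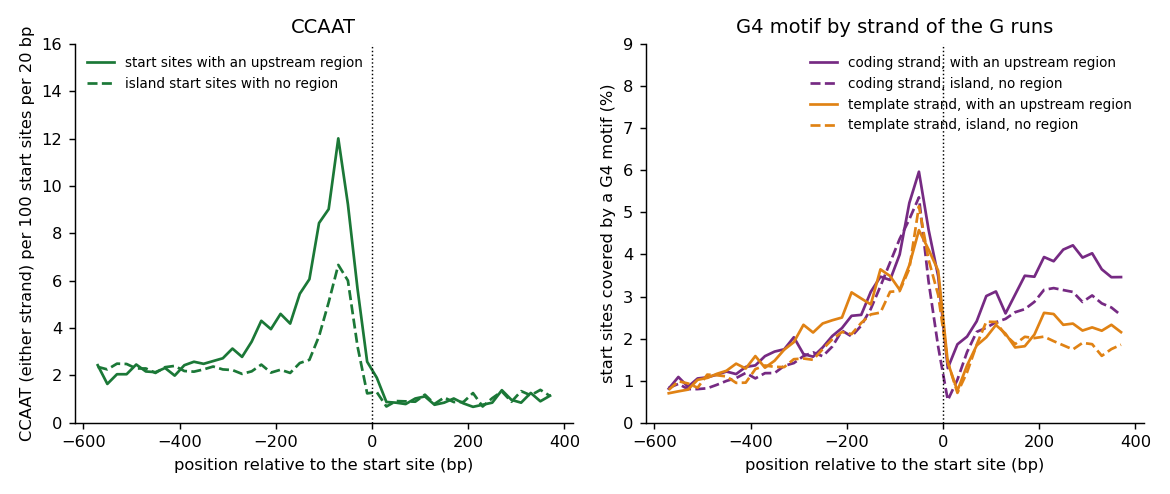
Motifs around start sites (x axes, bp). Left, CCAAT on either strand per 100 start sites in 20-bp bins; right, the share of start sites (%) covered by a G4 motif, by the strand of its G runs. Solid lines are the 3413 start sites with an upstream region and dashed lines 7408 strict island starts of genes with no region; CCAAT reaches 12 against 6.67, while the G4 motif on the coding strand reaches 5.97% against 5.36%.

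In the same windows the G4 motif was present in 38.7% of the upstream windows, 29.0% of windows at all genes and 36.3% of the island windows without a region, a difference from the last of 2.40 points (0.457 to 4.35). The upstream regions were richer in G and C, with a median of 71.1% against 67.2%. Within classes of equal GC content the sign turned, and the regions held the motif less often at 60% to 65% GC (14.0% against 20.7%, difference −6.64, −10.3 to −2.59), at 65% to 70% (difference −9.14, −13.1 to −5.09) and at 70% to 75% (difference −10.2, −14.5 to −5.89). In the other 3 classes the interval took in 0. In the 20-bp bin 40 to 60 bp upstream, 5.97% of start sites with an upstream region and 5.36% of those without one were covered by a motif on the coding strand. On the template strand the order in this bin was the other way, 4.58% with a region and 5.14% without. In every other bin from 340 bp upstream to the start, the template strand was higher with a region. At 120 to 140 bp upstream it was 3.64% against 2.62%. The coding strand was lower with a region at 100 to 120 bp upstream (3.39% against 3.81%) and at 80 to 100 bp. In the other bins from 260 bp upstream to the start the coding strand was higher with a region.

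Of the other motifs searched on both strands, the GC box GGGCGG was the most common, in 81.5% of upstream and 71.1% of downstream regions (difference 10.4, 6.29 to 14.9). Among regions of 280 bp or more it was in 95.1% and 95.6% (difference −0.439, −3.30 to 5.18). Within 100 bp of the middle the upstream share exceeded that of regions at the start by 0.486 points, with an interval that took in 0 (−1.64 to 2.68). It was in 82.5% of the upstream windows, 55.8% of windows at all genes and 65.6% of island windows without a region. The excess over island windows had an interval above 0 in the 4 classes of GC content up to 75%, and took in 0 at 75% to 80% (difference 1.24, −1.12 to 3.48) and at 80% to 90% (difference 1.82, −0.344 to 3.69). The ETS core CCGGAA was in 24.4% upstream and 17.2% downstream (difference 7.13, 3.20 to 10.6). Within 100 bp of the middle it was in 21.1% of upstream regions and in 27.5% of regions at the start (difference −6.40, −8.87 to −3.97). Windows of that length held it in 16.5% at all genes and in 19.3% at island starts without a region, the latter 1.85 points below the upstream share (0.251 to 3.49). AP-1 letters TGACTCA were rarer upstream than downstream, 2.36% against 4.89% (difference −2.54, −4.92 to −0.832). Against island windows without a region they were more frequent. Within 100 bp of the middle 1.99% of upstream regions held them, against 1.38% (difference 0.611, 0.107 to 1.18). The NRF1 core GCATGCGC (5.68%), the CRE TGACGTCA (4.17%), the E-box CACGTG (11.0%), the TATA box TATAAA (1.87%), the YY1 core AAGATGG (4.06%) and the GATA core AGATAA (2.16%) differed from the downstream class by 2.88 points or less, with intervals that took in 0. That comparison was of whole regions. Within 100 bp of the middle the GATA core was rarer upstream than downstream (1.65% against 2.98%, difference −1.33, −3.32 to −0.0440). Against regions at the start, the interval at that length left out 0 for the NRF1 core (difference −2.82), the YY1 core (−2.33) and the GATA core (0.772). Windows at all genes held the NRF1, CRE, E-box, TATA, YY1 and GATA letters in 3.39%, 2.25%, 6.80%, 7.99%, 2.54% and 4.98%, and AP-1 letters in 2.52%. Upstream windows of the same length held them in 5.23%, 3.66%, 8.89%, 1.56%, 2.93% and 1.65%, in the same order, and AP-1 letters in 1.99%. TATA letters were thus rarer in the upstream windows (1.56%) than at genes at large. They were also rarer than in island windows without a region, which held them in 5.01% (difference −3.45, −4.08 to −2.78). Median GC content was 71.1% in the upstream windows, 64.2% at all genes and 67.2% in the island windows, and its part was not tested. For the YY1 core the difference between upstream windows and windows at all genes was 0.388 points, with an interval that took in 0 (−0.168 to 1.03). The interval for AP-1 letters also took in 0.

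The setting of the regions was that of CpG islands. A strict island (500 bp or more, GC share at least 0.55, observed over expected CpG ratio at least 0.65) overlapped 96.0% of upstream and 90.4% of downstream regions (difference 5.54, 3.10 to 8.60). Regions at the start had a strict island in 95.9% and those at divergent pairs in 98.8%, so this setting was not particular to the upstream class. The 142 upstream regions outside such islands had all 5 libraries in 36.6%, against 65.1% of those inside, and their median width was 170.5 bp against 233 bp. Although divergent protein-coding pairs were left out, 922 upstream regions (26.2%, 24.8% to 27.7%) had an annotated noncoding start on the opposite strand within 1 kb. The downstream share was 24.3% (difference 1.93, −2.39 to 5.87). Upstream regions with and without such a start had all 5 libraries in 65.6% and 63.4% (difference 2.21, −1.41 to 5.74).

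Named gene lists give the regions a biological address. Each count below is of genes with an upstream region out of those matched, to be read against 16.9% of all protein-coding genes and without a test of its own. Of 16 genes known from textbooks for promoter quadruplexes, 6 had an upstream region. Fold enrichment at HRAS, a small GTPase (110 bp), ranged from 8.20 to 13.1 and the chaperone HSP90AA1 (170 bp) from 7.17 to 9.74, both with no motif inside the region. In all, 3 of the 6 genes had a motif in their upstream region. Of 17 helicases linked to quadruplexes 3 had one, namely BLM, DHX9 and ERCC2, and of 12 telomere genes 4 did.

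Transcription factors of GC boxes had upstream regions in 12 of 22 cases. These included KLF16 and MAZ, described above, KLF6 at 164 bp (8.88 to 13.5) and the immediate early factor EGR1 at 577 bp (7.83 to 8.41). CCAAT and ETS factors had 6 of 20, among them YY1 at 340 bp (7.59 to 12.2) and ELK1 at 173 bp (7.48 to 11.3). The RNA polymerase II machinery had 8 of 40, close to the background share, among them the subunits POLR2G (89 bp, 6.86 to 8.07) and POLR2H (90 bp, 6.25 to 11.0).

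Among chromatin genes, 16 of 27 acetylation genes had an upstream region, the highest share of the 17 lists at 59.3%. HDAC6, a cytoplasmic deacetylase, had one at 69 bp (8.41 to 12.4), the acetyltransferase KAT6B at 159 bp (7.22 to 14.5) and the deacetylase SIRT1 at 60 bp (6.98 to 12). The DNA methylation machinery had 6 of 19. At DNMT3B, a de novo methyltransferase, the region (chr20:31349974-31350208, 100 bp upstream) held 2 motifs on each strand, and fold enrichment was 10.5 (1a), 8.14 (1c), 9.53 (2a), 7.08 (2b) and 10.2 (2c), with overlapping replicates. UHRF1, which brings maintenance methylation to replicating DNA, had a region at 151 bp (6.84 to 12.7).

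Genes of the K562 lineage were represented. Of 20 erythroid and megakaryocytic genes 6 (30%) had an upstream region and 10 a region of any class near a start, the latter to be read against 30.1% of all protein-coding genes. At TAL1, a master regulator of blood formation, the values were 11.8 (1a), 11.2 (1c), 4.91 (2a), 5.81 (2b) and 6.92 (2c), so replicate 1 was above replicate 2 in every library. In percentiles these were 91.6, 93.8, 12, 39.0 and 66.2 in the same order, with the same separation. At ZFPM1, the GATA1 cofactor FOG1, they were 13.6, 15.7, 19.7, 10.9 and 15, and 2a was the highest. RUNX1 at 105 bp ranged from 6.82 to 8.59. Haem and iron genes had 9 of 18, among them ALAD, an early enzyme of haem synthesis (113 bp, 9.45 to 15.1), the mitochondrial transporters ABCB10 (243 bp, 8.90 to 12) and SLC25A37 (108 bp, 5.81 to 8.74).

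Signalling genes around BCR-ABL, the fusion kinase of this leukaemia, had 16 of 30, among them ABL1 at 336 bp (7.46 to 11.3) and the adaptor CRKL at 187 bp (8.23 to 13.5). Of 37 cell cycle genes 15 had one, led by the cyclins CCNE1 (183 bp, 9.87 to 15.7) and CCNB1 (124 bp, 9.55 to 10.8) and the kinase WEE1 (181 bp, 8.53 to 15.2). The BCL2 family had 8 of 18, with BCL2L2 at 586 bp (6.74 to 15.1), inside an exon of PPP1R3E, and housekeeping genes had 9 of 16, with TUBB, PGK1 and ACTB at 97, 174 and 59 bp.

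Lists for other cell types had few such regions. None of 14 hepatocyte genes and none of 14 lymphocyte genes had an upstream region or a region of any class within 1 kb of a start. Of 15 keratinocyte genes 2 (13.3%) had one, a share near that of all protein-coding genes: JUP, a junction protein made in many cell types, at 159 bp with 13.8 (1a), 12.8 (1c), 11.9 (2a), 12.6 (2b) and 12.5 (2c), and SFN at 104 bp with a peak in 3 libraries (4.49 to 7.27). JUP was high in all 5 libraries and SFN was under the upstream median in each of its 3. Strict CpG islands overlapped 96.0% of all upstream regions. Whether the starts of the genes on these lists lie in such islands was not counted. The part of islands in the list counts was not tested.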

How the data were processed

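The members and the gene lists were chosen with earlier results of these data known. The submitters' processing notes name MACS2 and hg19. The aligner, peak settings and control are not given in the sources used here. The deposited peak lists, 1 per library, gave a fold enrichment (a ratio of signal to local background) and a −log10 p per peak as the authors made them, used to rank or filter peaks within a list. Fold values printed per library are not on 1 scale between libraries, so their order across libraries also holds each library's own scale. The deposited high-confidence list gave positions alone. Stretches covered by 3 or more of the 5 lists were identical to it for all 8937 regions used. The depth of the libraries is unknown, so no value can be set against read numbers, and deeper libraries may have longer lists.

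Start sites were those of basic protein-coding transcripts in GENCODE release 44 mapped to GRCh37 (19747 genes, 55732 start sites). A region counted as called in a library when it met a peak of it by 1 bp or more. Sequence was read from GRCh37 with pysam 0.24.0, and tables were made with pandas 2.3.3, numpy 2.4.6 and scipy 1.17.1. Shares have 95% Wilson intervals and differences 95% Newcombe intervals. Values with an SD are means over 2 biological replicates after averaging technical libraries. The sources do not say what separates the biological replicates, so the spread may be technical. Percentiles were tested by exact sign flips. Scripts were tested on simulated data.

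Genes were named by a rule: the 10 upstream regions with a peak in all 5 libraries and the highest lowest percentile, up to 3 genes per list with the most libraries and then the highest lowest percentile, 2 regions on each side of each bound, the 3 with the most motif bases on each strand and the 3 widest. Some genes and sequences that this rule took are not reported here. The 17 lists held 1 symbol, of the keratinocyte list, that matched no gene. The alternatives tried covered start sites, the point and bounds of the rule, pair spacing, peak threshold, libraries, motif and island definitions, and region width.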

Additional observations from a re-analysis of the deposited data

Results flagged for a closer look

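Over 70 sets of 5 library values, 1 held 1 library far from the other 4, by the gap to the nearest value as a share of the whole range. Chance alone would give about 1 in 20. At BLM, a helicase that unwinds quadruplexes, the upstream region had a fold enrichment of 11.7 in 2a, while the other 4 libraries lay between 6.39 and 7.75. In percentiles of each library's own peaks this was 95.8 in 2a and 46.4 to 73.6 in the others.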

How the results depend on the processing

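The CCAAT difference and, over the alternatives listed at the outset, the difference in the share with all 5 libraries kept their direction and side of the threshold in every one run. The difference in percentile of fold enrichment, whose test cannot pass a threshold with 2 replicates, was positive in each, from 4.71 to 14.4. Leaving out 1 library at a time gave 3095 to 3333 regions, a median distance of 106 to 108 bp, a library-support difference of 10.1 to 11.9, a percentile difference of 8.17 to 9.86, a G4 share of 40% to 41.3%, a G4 difference of 0.226 to 1.24, a coding-strand share of 52.1% to 53.6%, a strand difference of −10.9 to −6.40, a CCAAT difference of 20.7 to 21.8, an island share of 96.1% to 96.8% and an opposite noncoding share of 25.9% to 26.9%. The strand difference missed its threshold as reported (−7.71) and left out 0 without 1a (−10.9), without 1c (−9.71) and without 2c (−10.2). It also did so with all protein-coding transcripts (−10.8), canonical starts (−9.57), the mean summit (−8.55), an inner bound of 100 bp (−11.4), genes whose starts lie within 100 bp (−16.2), loops of up to 12 bases (−7.92) and windows of 100 bp to each side (−11.1). The cause was not tested.

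The G4 difference turned negative at a −log10 p threshold of 10 (−4.03), regions in all 5 libraries (−9.0), runs of 2 or more G (−1.13) and windows of 100 bp to each side (−0.495). Limits of width were added after seeing the data, and it was −3.76 for regions of 183 to 279 bp and −14.3 for wider ones. The library-support difference was 3.9 in the narrowest group and −1.59 in the widest, where few regions lack a library. By construction the number of regions fell to 1965 with an inner bound of 100 bp, 2253 with all 5 libraries and 1711 at genes whose starts lie within 100 bp. The median distance was then 151 bp with the inner bound of 100 bp, 104 bp with an outer bound of 500 bp, 112 bp with canonical starts and 113 bp with all 5 libraries. The G4 share was 39.5% with canonical starts, 43.7% with the inner bound of 100 bp, 45.6% with stronger peaks, 48.9% with all 5 libraries, 39.1% at genes whose starts lie within 100 bp, 58.1% with loops of up to 12 bases, 94.4% with runs of 2 or more G and 38.7% in windows of 100 bp to each side. The coding-strand share was 49% at genes whose starts lie within 100 bp. The island share was 95.2% with all transcripts, 97.3% with canonical starts, 93.3% with starts of every gene type, 95.1% with the inner bound of 100 bp, 96.6% with the outer bound of 500 bp, 97.3% with stronger peaks, 97.7% with all 5 libraries, 97.3% at genes whose starts lie within 100 bp, 96.8% without 2c and 97.6% with the looser island. Counting noncoding starts as starts left 4.25% with an opposite noncoding start, since such pairs then counted as divergent.

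No paired analysis was possible because the groups with shared replicate numbers, HaCaT control and entinostat, were not analysed here, and the BG4 libraries have no second group.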

Other observations

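The upstream share of regions near start sites varied by chromosome. It was 70.4% on the X chromosome (88 of 125 regions), 58.7% on chromosome 5 (162 of 276) and 44.5% on chromosome 6 (162 of 364), beside 53.0% over all. The summits of the 5 libraries at an upstream region called in all of them spread over a median of 92 bp, with an upper quartile of 135 bp.

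CCAAT boxes of either direction were about equally common in the upstream regions, 51.1% of 2740 boxes reading on the coding strand, and the boxes lay a median of 109 bp upstream of the start with quartiles at 65.75 and 192 bp. Upstream regions with a CCAAT box within 100 bp of the middle had all 5 libraries in 70.1%, against 59.8% of those without (difference 10.3, 7.11 to 13.4). Their GC content was lower (median 69.2% against 72.9%), and their median width was 244 bp against 223 bp.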
